A study of Bos taurus with 8 samples.

Results

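The microRNAs (miRNAs) of the imprinted DLK1-DIO3 locus were followed here in plasma and blood cells of cattle. Members were found by name: bovine miRNA names whose number belongs to this cluster, any letter or arm, which gave 50 of the 704 names in the table. Small RNA was sequenced from the plasma and the blood cells of 4 female Holstein-Friesian cross cattle with oestrous cycles, not pregnant, aged about 2 years and labelled 44 to 47. Each animal gave 1 plasma and 1 blood cell library, so the 8 libraries form 4 pairs. Plasma was spun in steps and passed through a filter to remove cells, whereas the blood cell pellet held red blood cells together with the buffy coat. The libraries took in equal volumes of RNA extract and not equal amounts of RNA. Such a pellet mixes cell types, so fewer cells of a type and less of a miRNA per cell cannot be told apart in it.

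In mammals the DLK1-DIO3 locus is expressed from 1 parental chromosome or the other. The protein-coding genes DLK1, RTL1 and DIO3 are read from the paternal copy, while MEG3, MEG8, rows of small nucleolar RNAs and the miRNAs are read from the maternal copy, as long non-coding transcripts from which the miRNA hairpins are cut. The miRNAs are known from brain, placenta, fetal tissues and muscle, and in sheep the callipyge mutation, which enlarges the hindquarter muscles, lies in this region. A miRNA hairpin has 2 arms, named 5p and 3p, and each can give a mature miRNA that guides the silencing of target mRNAs.

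The plasma libraries held 1453384 to 4296460 miRNA reads and the blood cell libraries 11169204 to 14471979. Levels are given as reads per 1000000 mapped bovine miRNA reads (RPMM), on which 3 reads are worth 0.696 to 2.07 RPMM in plasma, against 0.207 to 0.268 in blood cells. The fractions were compared on the counts with the quasi-likelihood test of edgeR, blocked by cow and scaled by TMM, and p-values were adjusted by Benjamini-Hochberg over all names tested. A name counts as called when its adjusted p is under 0.05. The scaling matters, as the median log2 ratio of plasma over blood cells for the 209 names above a level of 25 RPMM was 0.08 with TMM and 1.76 when library totals alone were used. Fold changes are from TMM unless stated, and RPMM ratios are therefore larger. The red blood cell miRNAs miR-486, miR-451 and miR-144 together took 89165 to 180387 RPMM in plasma, against 488193 to 561169 in blood cells.

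The cluster made up a larger share of the miRNA reads in plasma than in blood cells in each cow. Summed over the 50 members, plasma held 2561, 2429, 2069 and 2494 RPMM in cows 44 to 47, against 53.2, 84.2, 47.3 and 54.2 RPMM in the blood cells of the same cows. The lowest plasma library was thus above the highest blood cell library. The sum was 0.207% to 0.256% of the bovine miRNA reads in plasma, against 0.00473% to 0.00842% in blood cells. Within a cow, plasma exceeded blood cells 48.1-fold, 28.9-fold, 43.7-fold and 46.0-fold, with a geometric mean of 40.9, and the low value of cow 45 went with the highest blood cell sum. Divided by TMM factors, the geometric mean was 12.8. In reads, the members had 3720 to 10743 per plasma library, against 568 to 1219 per library of blood cells.

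Detection followed the same direction although the blood cell libraries held more miRNA reads. The study's mean raw read totals were similar in the fractions, and many more plasma reads were excluded as short. Between 18 and 25 members had over 10 reads in a plasma library, against 5 to 12 in a blood cell library. Over all names, 275 to 315 had over 10 reads in a plasma library, against 281 to 305 in a blood cell library. Of the 50, 48 had a read in some plasma library and 39 in some blood cell library. In every plasma library 17 members had over 10 reads, and in every blood cell library 5 did.

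Of the 50 members, 11 reached 25 RPMM in 3 or more of a fraction's 4 libraries, the level the study asked for before testing, and 10 of these reached it in plasma alone. The lowest passing member, miR-432, averaged 34.9 RPMM in plasma, and the highest that did not pass, miR-487b, averaged 20.9. Since a member that passes through plasma alone had to be higher there, the calls of these 11 are described without further weight. In this fit 11 were called with more in plasma and 0 with more in blood cells, where 45.5% of the 209 names tested at this level had more in plasma by the test and 39.7% had more in blood cells. With library totals alone the 11 were also called higher, beside 67.0% of all names. Without any filter on level, 31 of the 50 members were called higher in plasma, beside 25.3% of the 704 names. In that fit 0 members were called higher in blood cells, beside 21.7% of all names, 0 were lower in plasma at an unadjusted p under 0.05, and edgeR's likelihood ratio test and DESeq2 called 0 lower as well. The median log2 fold change was 3.39 over the 50 members and 0.52 over the 704 names. With library totals 34 members were called higher, beside 42.2% of all names, with medians of 4.90 and 2.02. RPMM of 34 members were higher in every plasma library than in any blood cell library, which held for 35.7% of all names, and the reverse held for 0 members, against 11.8% of all names.

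**Figure D1:**
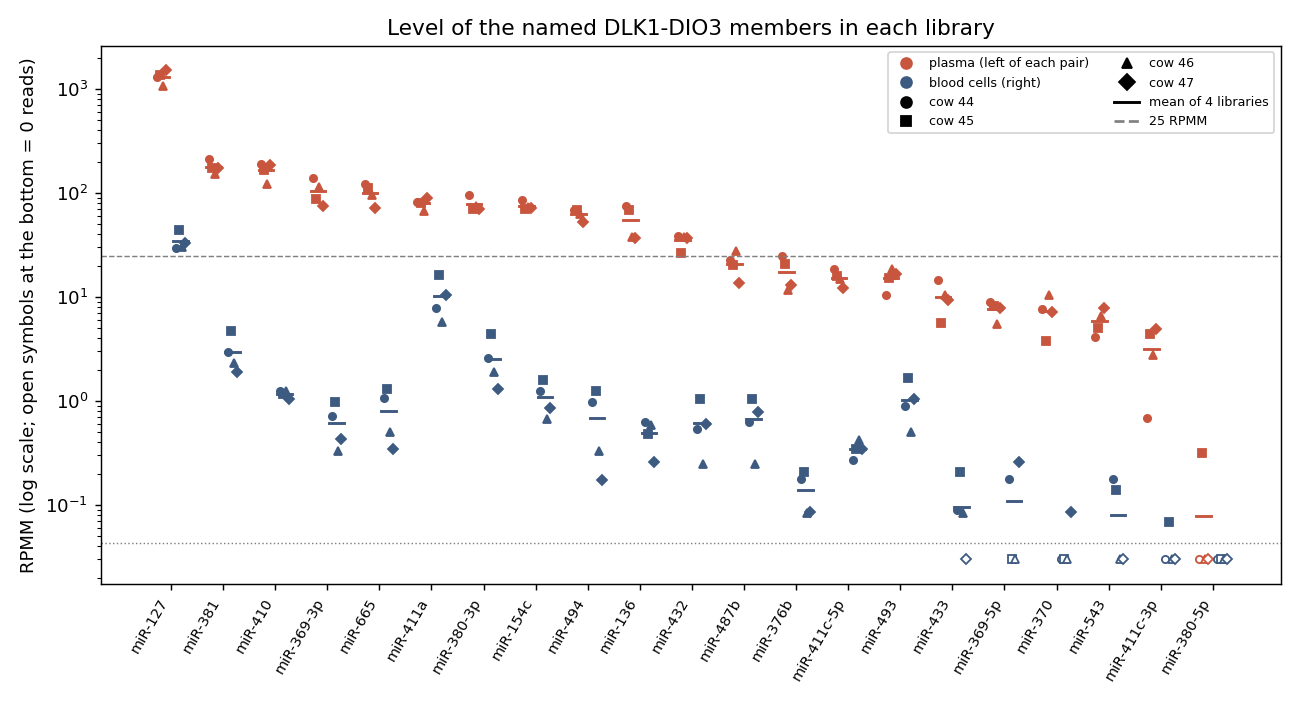
RPMM on a log scale of the 21 named members, 1 symbol per library with plasma on the left of each pair and blood cells on the right, bars for the mean of 4 libraries (not drawn for the lowest means) and open symbols at the bottom for 0 reads. Plasma symbols lie above blood cell symbols for each member but miR-380-5p, which had a single read, and miR-127 is the one member whose blood cell mean passes the dashed line at 25 RPMM.

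miR-127 was the most abundant member in both fractions. Its hairpin lies opposite the RTL1 gene, whose transcript it silences in mice. The table places it at chr21:65868487-65868508 (bosTau4, plus strand). It had 1306, 1370, 1076 and 1507 RPMM in the plasma of cows 44 to 47, against 29.8, 44.5, 30.0 and 32.9 RPMM in their blood cells. The means were 1315 ± 180 RPMM in plasma, against 34.3 ± 6.93 in blood cells (SD, n = 4). The fractions were far apart, and cow 46 was the lowest in plasma while cow 45 was the highest in blood cells. The log2 fold change was 3.60 (standard error, SE, 0.21, edgeR adjusted p = 9.07e-06), higher in plasma in 4 of 4 cows, or 5.27 with library totals. By mean RPMM miR-127 ranked 60 of 704 names in plasma, against 132 in blood cells. It alone took 51.0% to 60.4% of the members' reads in plasma, against 52.8% to 63.4% in blood cells, ranges that overlap.

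Other passing members of the same end of the cluster were miR-136, miR-432 and miR-665. miR-136, which like miR-127 lies opposite RTL1 in mice, was at chr21:65870126-65870148 and had 75.03, 69.1, 37.4 and 36.7 RPMM in plasma, against 0.626, 0.483, 0.583 and 0.258 RPMM in blood cells. Its plasma levels were high in cows 44 and 45 and low in cows 46 and 47, and it was the most variable of the 11 in plasma, with a coefficient of variation of 37.4%. miR-432, at chr21:65869939-65869961, had 38.5, 26.4, 37.4 and 37.1 RPMM in plasma, against 0.537, 1.04, 0.250 and 0.603 RPMM in blood cells. Cow 45 stood lowest in plasma and highest in blood cells for this miRNA. miR-665, at chr21:65862179-65862198, had 121.8, 110, 94.5 and 72.2 RPMM in plasma, against 1.07, 1.31, 0.500 and 0.345 RPMM in blood cells. Log2 fold changes were 5.08 for miR-136, 4.13 for miR-432 and 5.30 for miR-665, with SEs of 0.33, 0.41 and 0.30 (edgeR adjusted p = 1.33e-05, 0.0001 and 8.88e-06), each higher in 4 of 4 cows.

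At the other end, miR-381 and miR-410 followed miR-127 in plasma level. miR-381, at chr21:66021990-66022011, had 213, 175, 151 and 172 RPMM in plasma, against 2.95, 4.70, 2.33 and 1.90 RPMM in blood cells. miR-410, at chr21:66042784-66042804, had 189, 166, 123 and 187 RPMM in plasma, against 1.25, 1.17, 1.25 and 1.03 RPMM in blood cells. The blood cell levels of miR-410 were nearly alike in the 4 cows, whereas those of miR-381 were highest in cow 45. Log2 fold changes were 4.28 for miR-381 and 5.44 for miR-410 (SEs 0.29 and 0.27, edgeR adjusted p = 1.85e-05 and 6.34e-06), higher in 4 of 4 cows.

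miR-369-3p, which in human cells was found to raise the translation of tumour necrosis factor when serum is withdrawn, had the largest fold change of the 11. The table places it at chr21:66042453-66042473. It had 139, 86.4, 113 and 74.0 RPMM in plasma, against 0.716, 0.967, 0.333 and 0.431 RPMM in blood cells. Cow 44 was the highest and cow 47 the lowest in plasma, and blood cells held 4 to 14 reads per library. The log2 fold change was 5.67 (SE 0.33, edgeR adjusted p = 9.04e-06), and 7.33 with library totals. The log2 fold changes of miR-410 and miR-665 were the nearest to it, and the differences between these members were not tested.

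miR-380-3p, miR-154c and miR-494 lay between 63.3 and 77.7 mean RPMM in plasma. miR-380-3p, at chr21:66003709-66003729, had 95.7, 70.7, 74.2 and 70.1 RPMM in plasma, against 2.59, 4.35, 1.92 and 1.29 RPMM in blood cells. miR-154c, at chr21:66014165-66014186, had 85.4, 70.4, 73.1 and 71.7 RPMM in plasma, against 1.25, 1.59, 0.666 and 0.861 RPMM in blood cells. In both, cow 44 was the highest of the plasma libraries and the other 3 cows were close together. miR-494, at chr21:66008592-66008613, had 68.8, 68.8, 63.2 and 52.2 RPMM in plasma, against 0.984, 1.24, 0.333 and 0.172 RPMM in blood cells. Log2 fold changes were 3.33 for miR-380-3p, 4.44 for miR-154c and 4.92 for miR-494, with SEs of 0.34, 0.28 and 0.43 (edgeR adjusted p = 0.000125, 1.27e-05 and 5.54e-05). All of these were higher in plasma in 4 of 4 cows.

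miR-411a had the smallest fold change of the 11. It lies at chr21:66001979-66002000, in the stretch of the cluster that starts with miR-379. It had 81.2, 80.7, 67.1 and 88.7 RPMM in plasma, against 7.87, 16.4, 5.75 and 10.5 RPMM in blood cells. The fractions did not overlap, and among the members miR-411a ranked 2 by level in blood cells and 6 in plasma. The log2 fold change was 1.39 (SE 0.24, edgeR adjusted p = 0.00166), higher in 4 of 4 cows, whereas the other 10 lay between 3.33 and 5.67. In each of the 4 cows miR-411a had the lowest ratio of plasma to blood cell RPMM among the 11, at 4.93 to 11.7.

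The make-up of the cluster's reads therefore differed between the fractions, which does not depend on scaling between libraries. miR-411a took 3.17% to 3.56% of the members' reads in plasma, against 12.1% to 19.4% in blood cells. miR-127 and miR-411a together took 54.2% to 64.0% in plasma, against 70.8% to 80.1% in blood cells. In the other direction, miR-410 took 5.95% to 7.50% in plasma, against 1.39% to 2.64% in blood cells, and miR-369-3p took 2.97% to 5.47% in plasma, against 0.704% to 1.34% in blood cells. Of the 11 members, the share was higher in every plasma library for 7, higher in every blood cell library for miR-411a, and overlapping for miR-127, miR-380-3p and miR-432. As 10 of the 11 passed through plasma alone, the choice itself favours larger shares in plasma, and the count of 7 carries no further weight. Shares of one sum are tied to each other, so a large share of miR-411a lowers the others. Across all 50 members, the order of RPMM was alike between plasma libraries (Spearman's rho 0.905 to 0.960), between blood cell libraries (0.756 to 0.827) and less so between fractions (0.627 to 0.804). These correlations are descriptions over members that share libraries, and the members had fewer reads in blood cells.

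**Figure D2:**
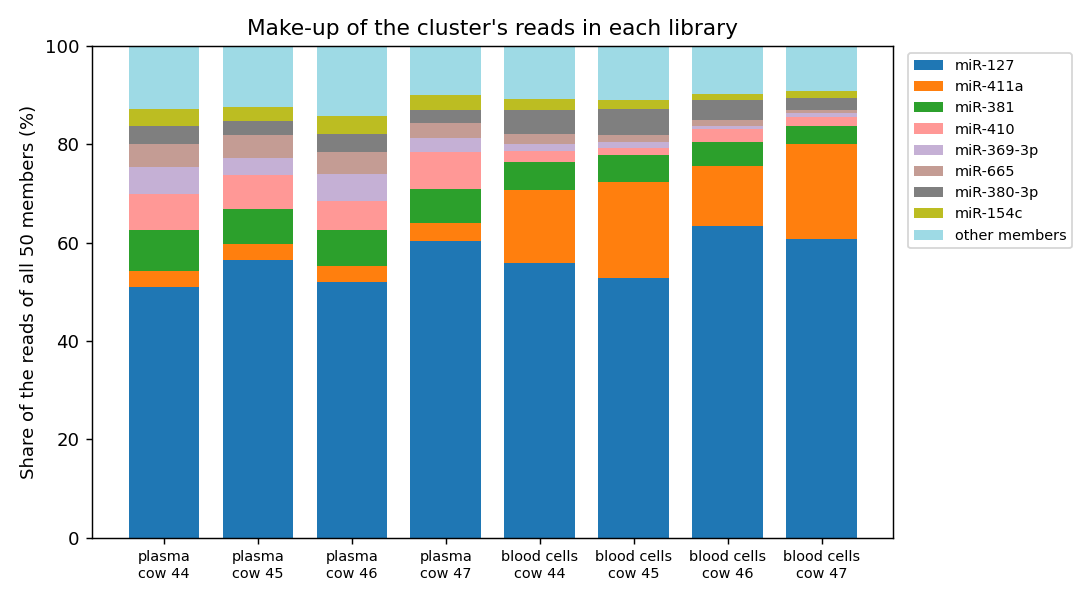
Share of the reads of all 50 members taken by each of 8 members and by the rest (%, stacked to 100), with the 4 plasma libraries on the left and the 4 blood cell libraries on the right. The segment of miR-127 is about as tall in all libraries, and that of miR-411a is 3.17% to 3.56% in plasma, against 12.1% to 19.4% in blood cells.

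A further 8 members came next in plasma level, under the 25 RPMM level, and were called higher in plasma in the fit without a filter. miR-487b had 22.7, 20.1, 27.5 and 13.5 RPMM in plasma, against 0.626, 1.04, 0.250 and 0.775 RPMM in blood cells. miR-376b, of a family whose precursors are edited from A to I in human and mouse brain, had 24.8, 20.7, 11.5 and 13.0 RPMM in plasma, against 0.179, 0.207, 0.0833 and 0.0861 RPMM in blood cells. Both were well apart between the fractions, and miR-376b had at most 3 reads in a blood cell library. miR-411c-5p had 18.6, 15.7, 14.8 and 12.1 RPMM in plasma, against 0.268, 0.345, 0.416 and 0.345 RPMM in blood cells. miR-493, the member at the start of the cluster, had 10.3, 15.1, 18.7 and 16.7 RPMM in plasma, against 0.895, 1.66, 0.500 and 1.03 RPMM in blood cells. Here too the lowest plasma library was above the highest blood cell library. Log2 fold changes in this fit were 3.32 for miR-487b, 5.24 for miR-376b, 3.82 for miR-411c-5p and 2.34 for miR-493 (SEs 0.38, 0.42, 0.37 and 0.38, edgeR adjusted p = 2.47e-06, 5.22e-08, 4.46e-07 and 8.69e-05). When names of 1 number that differ by a letter were summed, 3p names apart from the rest, the log2 fold change of the sum was 1.77 for miR-411c-5p, whose sum takes in miR-411a, and 4.65 for miR-376b. After miR-411a, miR-493 had the lowest fold change among the 19 members with the highest plasma levels.

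The remaining members of these 8 had few reads in blood cells. miR-433, another miRNA opposite RTL1 in mice, had 14.5, 5.66, 10.4 and 9.29 RPMM in plasma, against 0.0895, 0.207, 0.0833 and 0 RPMM in blood cells. miR-543 had 4.13, 5.03, 6.60 and 7.89 RPMM in plasma, against 0.179, 0.138, 0 and 0 RPMM in blood cells. Cow 45 was the lowest in plasma and the highest in blood cells for miR-433, while cow 44 was the lowest in plasma for miR-543. miR-370, which lowers the fatty acid oxidation enzyme CPT1A in human liver cells, had 7.57, 3.77, 10.4 and 7.20 RPMM in plasma, with 73 reads in all, and 1 read in blood cells, in cow 47. The ratio of its pooled RPMM was 334 (95% exact binomial interval 58.1 to 13380), or at least 81.7 without cow 47, taking 3 reads in the remaining blood cell libraries as the floor. Log2 fold changes were 4.79 for miR-433, 4.44 for miR-543 and 6.19 for miR-370 (SEs 0.59, 0.71 and 0.71, edgeR adjusted p = 5.47e-06, 8.13e-05 and 2.75e-06). With so few reads single cows moved these values, between 4.18 without cow 47 and 5.71 without cow 45 for miR-433, between 3.63 without cow 47 and 5.20 without cow 44 for miR-543, and to 7.29 without cow 47 for miR-370. The calls were kept in each case.

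Both arms were listed for 3 hairpins, and in these 1 arm dominated. miR-369-3p took 94.0%, 91.4%, 95.4% and 90.4% of the reads of its hairpin in the plasma of cows 44 to 47, from 215 to 353 reads each. The smallest exact (Clopper-Pearson) 95% interval bound among these was 86.8%. In blood cells the 3p arm had 31 of 36 reads, 86.1% with an interval of 70.5% to 95.3%, which includes the plasma mean of 92.8%. The other arm, miR-369-5p, had 8.95, 8.17, 5.50 and 7.89 RPMM in plasma, against 0.179, 0, 0 and 0.258 RPMM in blood cells, and was called, at a log2 fold change of 4.55 (SE 0.62, edgeR adjusted p = 1.63e-05). miR-380 gave almost no 5p reads, with 801 of 802 reads in plasma and 130 of 130 in blood cells from its 3p arm. miR-380-5p was therefore seen as 1 read, in the plasma of cow 45, and was not called.

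In miR-411c the 5p arm was the main one. Its 3p arm took 3.57%, 21.9%, 15.6% and 28.8% of the reads in plasma, from 28 to 73 reads each, with 95% intervals from 0.0904% to 18.3% in cow 44 and from 18.8% to 40.6% in cow 47. The intervals of these cows do not overlap, and cow 44 was the plasma library with the fewest miRNA reads. In blood cells the 3p arm had 1 of 18 reads, 5.56% with an interval of 0.141% to 27.3%, so a difference between the fractions was not detectable at this depth. In RPMM, miR-411c-3p had 0.688, 4.40, 2.75 and 4.87 in plasma, against 0, 0.0690, 0 and 0 in blood cells. The ratio of its pooled RPMM was 188 (95% exact binomial interval 31.9 to 7593), or at least 41.3 without cow 45, which held the 1 read. It was called with a log2 fold change of 5.22 (SE 0.87, edgeR adjusted p = 0.000111), which moved to 6.36 without cow 45 and to 4.37 without cow 47, and stayed called. These intervals cover counting error only, since PCR copies are not independent molecules.

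The other 29 members had mean levels of up to 5.86 RPMM in plasma and up to 0.268 RPMM in blood cells. Of them, 11 were called higher in plasma in the fit without a filter, beside 25.3% of the 704 names. These 11 had log2 fold changes of 2.50 to 6.68 and mean plasma levels of 0.681 to 5.86 RPMM. Among these, chosen after their values were seen, miR-485 had 38 reads in plasma, against 0 in blood cells, at least 58.0-fold higher against 3 reads over the blood cell libraries, and miR-656 had 18 and 0, at least 27.5-fold higher. miR-485 is known to shape dendritic spines in rat neurons. The other 18 were not called and had 1 to 18 reads over the 8 libraries, too few to say whether they differ. Log2 fold changes were below 0 in 5 of these, also named after their values were seen, none of which was called. miR-431 had 4 reads in plasma, against 13 in blood cells, miR-1185 had 1 and 10, miR-299 had 2 and 4, miR-758 had 0 and 3, and miR-496 had 0 and 1. These are raw reads, and the blood cell libraries held more miRNA reads. With library totals miR-431 and miR-299 were at 0.77 and 1.06, so their direction turned with the scaling. miR-1185, miR-758 and miR-496 stayed below 0, at -0.95, -1.80 and -1.57. In all 5 the adjusted p was at least 0.203 in edgeR.

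**Figure D3:**
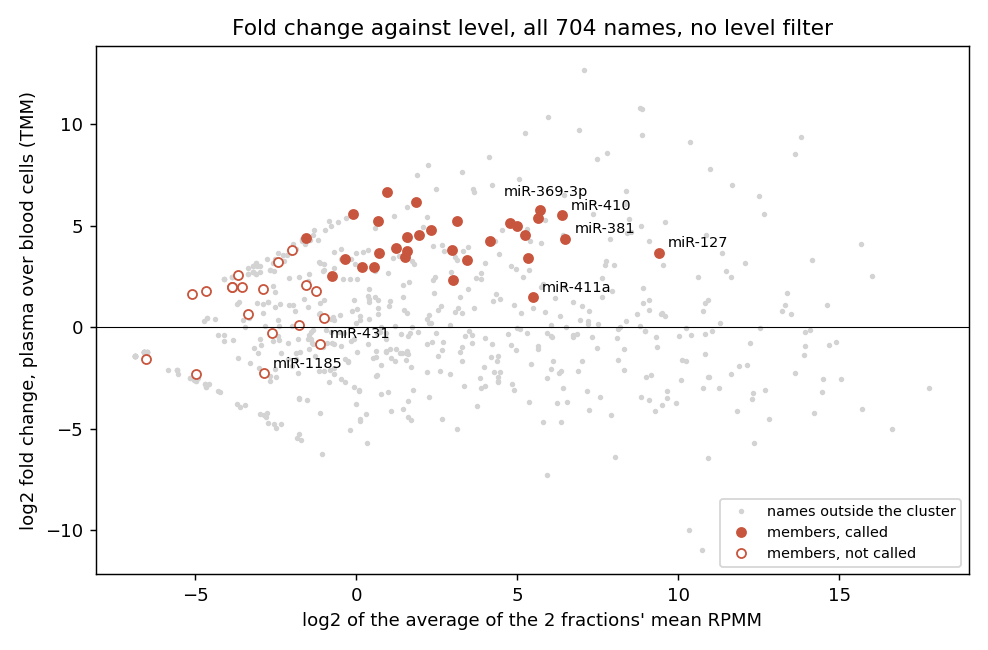
Log2 fold change, plasma relative to blood cells (TMM), against the log2 of the average of both fractions' mean RPMM, for all 704 names in the fit without a filter, with the 31 called members filled and the 19 others open. The called members lie between 1.47, miR-411a, and 6.68, miR-485, and the open ones are at the low levels on the left.

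Levels varied along the locus, which the choice of members did not use. The table places 49 of the 50 members on chromosome 21 of bosTau4, all on the plus strand and within 191 kb, chr21:65852880-66043621. The exception is miR-431, which it puts on an unplaced contig. In the ARS-UCD2.0 gene table of RefSeq all 50 names matched, to 47 hairpins, and all lay on chromosome 21 between DLK1 and DIO3, miR-431 included. By position there, the members within RTL1 numbered 5, namely miR-127, miR-136, miR-432, miR-433 and miR-431. On bosTau4 a gap of 105 kb parts 7 members, miR-493 to miR-370, from 42 members, miR-379 to miR-656. Of the 7, 4 reached 25 RPMM and 7 were called in the fit without a filter. Of the 42, 7 reached that level and 24 were called. All these calls were higher in plasma, beside 25.3% of the 704 names in that fit. Members not called had at most 18 reads each over the 8 libraries, and the part of level in these counts was not tested.

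The 7 members before the gap held more of the reads than the 42 after it, most of them from miR-127. The 7 summed to 1536 ± 174 RPMM in plasma, against 37.3 ± 8.01 in blood cells (SD, n = 4). The 42 summed to 851 ± 90.6 RPMM in plasma, against 22.1 ± 8.78 in blood cells. As a share of the members on chromosome 21 the 7 had 61.5% to 67.6% in plasma, against 58.5% to 68.3% in blood cells, so the balance of the parts was alike in the fractions. Without miR-127, the 7 had a mean of 20.6% in plasma, against 12.0% in blood cells. The median of the members' mean plasma levels was 34.9 RPMM before the gap and 1.70 after it. High and low members lay close together, as miR-412, at 0.253 mean RPMM in plasma, is the member before the miR-369 hairpin, whose 3p arm had 103.

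**Figure D4:**
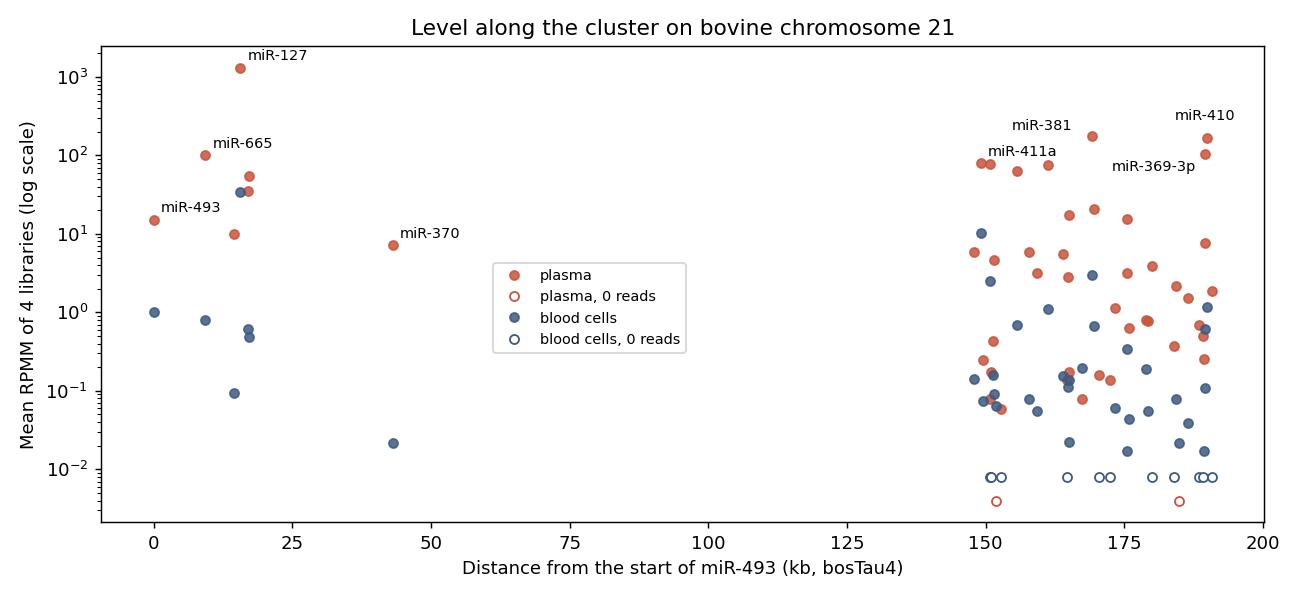
Mean RPMM of 4 libraries (log scale) against distance from the start of miR-493 in kb (bosTau4), for the 49 members on chromosome 21, with open symbols for members with 0 reads in a fraction. The 7 members on the left and the 42 on the right are parted by a gap of 105 kb, and miR-127 is the highest symbol of both fractions.

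The other names listed inside this interval were also scarce. miR-3956 had 1.96 ± 0.544 RPMM in plasma, against 0.0447 ± 0.0895 in blood cells, and miR-3957 had 1.93 ± 1.23 and 0 (SD, n = 4). Each was called in the fit without a filter, with more in plasma (log2 fold changes 3.68 and 5.70, SEs 0.98 and 1.30, edgeR adjusted p = 0.00571 and 0.00306). The human names miR-299-3p and miR-323b-3p, assigned to reads without a bovine match, had 1 read each, in the plasma of cow 45.

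Between cows, the RPMM of members at 25 RPMM or more were steady in plasma. Their coefficients of variation over the 4 plasma libraries were 9.18% to 37.4%, with a median of 15.6%, beside a median of 23.4% over the 196 names that reach this level in plasma. By RPMM, cow 44 was the highest plasma library for 9 of the 11 members and cow 47 for the other 2, miR-127 and miR-411a. The lowest library was cow 47 for 5, cow 46 for 4 and cow 45 for 2. In RPMM the members thus did not rise and fall as 1 block between cows. Cow 44 was also the plasma library with the fewest miRNA reads, and the part of depth in its rank was not tested. The scaling bears on this order too. For the names at 25 RPMM, the plasma TMM factor was 1.434 in cow 47, against 1.866 to 1.995 in the other cows. Dividing by these factors raises cow 47 relative to the others. The order of cows and the coefficients of variation were not computed on that scale, so they hold for RPMM alone. In blood cells, cow 45 had the highest sum, and miR-411a there varied more than miR-127, with coefficients of variation of 45.4% and 20.2%.

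Summed RPMM of markers of tissues outside the blood were higher in plasma, as for the cluster, though the neural miR-9-5p and miR-7 went the other way. Summed RPMM of the smooth muscle and stromal miRNAs miR-143, miR-145, miR-199a-5p and miR-214 were 12489 to 14100 in plasma, against 50.2 to 390 in blood cells, all 4 being present. The endothelial miR-126 arms summed to 5129 to 9762 in plasma, against 15.5 to 26.7 in blood cells. Skeletal and heart muscle miRNAs, 4 of 4 listed, summed to 60.3 to 269 in plasma, against 0.250 to 3.31 in blood cells, nearly all of it miR-133a, while miR-1 averaged 0.898 RPMM in plasma and miR-133b and miR-206 had 0 reads in blood cells. The liver miRNA miR-122 had 36.8 to 814 RPMM in plasma, against 0 to 0.179 in blood cells. Neural and endocrine miRNAs, 4 of 6 listed, summed to 1791 to 5175 in plasma, nearly all miR-375, and 68.4 to 94.4 in blood cells, and there miR-9-5p and miR-7 averaged 4.75 and 0.716 RPMM in plasma against 21.9 and 5.80 in blood cells. Leukocyte miRNAs, 6 of 6 listed, summed to 33204 to 70542 in plasma, against 25874 to 31809 in blood cells, most of it miR-142-5p. This direction turned with the scaling, and miR-142-3p was lower in plasma in RPMM too, at a mean of 1564, against 2438 in blood cells. With TMM 3 of the 6 were not called in edgeR and the other 3 were called lower in plasma, namely miR-142-3p at a log2 fold change of -2.51, miR-142-5p at -0.78 and miR-342 at -0.44 (adjusted p = 0.000894, 0.00235 and 0.0292). In the study's RT-qPCR the difference between plasma and cells was not borne out for miR-375. It was for miR-133a, whose levels were very low there and undetectable in another group of cows. The part of any of these tissues in the levels of the cluster was not tested.

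With TMM, miRNAs of other imprinted loci did not all share the direction of the cluster. Of miR-335 from MEST, miR-483 from IGF2, miR-675 from H19 and miR-296 and miR-298 from GNAS, 4 names were analysed here, 2 had more in plasma and 1 less by the test in both fits. miR-296-3p had 1636, 1554, 1364 and 1122 RPMM in plasma, against 51.7, 51.9, 57.0 and 59.9 RPMM in blood cells, with 3.00 as log2 fold change (SE 0.18, edgeR adjusted p = 1.18e-05). This level and fold change were near those of miR-127. miR-335 had 77.8, 55.9, 50.6 and 55.9 RPMM in plasma, against 2.42, 4.28, 2.42 and 2.07 RPMM in blood cells, with 2.76 as log2 fold change (SE 0.29, edgeR adjusted p = 0.000136). The other arm, miR-296-5p, had 36.7 ± 7.16 RPMM in plasma, against 26.3 ± 5.33 in blood cells (SD, n = 4) and was at -1.18 with TMM but 0.49 with library totals, so its direction turned with the scaling. miR-483 was tested without the filter alone and was not called.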

How the data were processed

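Small RNA libraries of plasma and blood cells from 4 cows were analysed. According to the study's methods, the authors trimmed and length-filtered reads and ran sRNAbench on bosTau4 and miRBase, allowing a mismatch. Reads were assigned to bovine names and then human ones. The upstream Bowtie version on record, which the methods do not name, was 0.12.9. Raw read counts per name were deposited by the authors, and the deposited RPMM use separate denominators for bovine and human names. RPMM here were computed from counts with the bovine denominator.

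The test was edgeR 4.0.16 (limma 3.58.1, R 4.3.3), quasi-likelihood, cow as block, on names with at least 25 RPMM in 3 of 4 libraries of a fraction (209) and on all 704. Standard errors are the absolute log2 fold change over the square root of F. Pairing comes from the animals. Same-cow deviations correlated at 0.0508 to 0.234, against -0.174 to 0.106 between different cows, ranges that overlap. The p-values rest on how the difference between the fractions varied over 4 animals, with information on spread shared across names. DESeq2 1.42.0 was an alternative. The code was tested on simulated data. Members with letter suffixes of 1 number (miR-154, miR-376, miR-411, miR-487) may share reads. Members and lists were chosen with earlier results of these data known. Members named are those at 25 RPMM, the next 8 in plasma, their other arms, the 5 highest in blood cells, and uncalled members of at least 5 RPMM. Mature sequences were not used here.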

Additional observations from a re-analysis of the deposited data

Results flagged for a closer look

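For each of the 21 named members and for their sum, the 4 libraries of a fraction were checked for 1 that lies far from the other 3, by the gap to its neighbour over the range, against Dixon's 95% critical value. For normally distributed values chance gives about 1 in 20 such groups, and here 5 of 44 were over the critical value. That rate does not hold for groups with 1 read in 1 library and 0 in the rest. There the gap equals the range by construction, so the count of 5 cannot be set against it. miR-380-3p in the plasma of cow 44 was high, at 95.7 RPMM against 70.1 to 74.2 in the other plasma libraries. miR-432 in the plasma of cow 45 was low, at 26.4 RPMM against 37.1 to 38.5 in the others. The other 3 rest on 1 read each, namely miR-370 in the blood cells of cow 47 (0.0861 RPMM), miR-380-5p in the plasma of cow 45 (0.314 RPMM) and miR-411c-3p in the blood cells of cow 45 (0.0690 RPMM), where all other libraries of the fraction had 0 reads.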

How the results depend on the processing

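The 21 named members kept a positive log2 fold change and their side of the threshold under each alternative that gave a value, among them no replicate block, where miR-127 was at 3.62. Members called higher in plasma numbered 11 at 25 RPMM (11 to 11 without single cows, 15 at 10 RPMM, 12 at a mean of 10 RPMM over 8 libraries) and 31 of 50 without a filter (27 to 29 without single cows, 32 with no replicate block, 29 with DESeq2, which left 14 members without an adjusted p). With library totals alone, calls over all names changed to 52 higher in blood cells at 25 RPMM, against 83 with TMM, and without a filter to 297 with more in plasma and 75 with more in blood cells, against 178 and 153. The summed ratio of 40.9 was 12.8 with TMM factors and 38.7 to 45.9 without single cows. When a cow was left out, the 209 names at 25 RPMM were kept, while the fit without a filter held the names that still had a read, 665 to 682 of 704 and 48 of 50 members, and miR-380-5p had no value without cow 45. Near-identical names were summed by number, 3p names apart, since sequences were not used here, which gave 27 members called of 42 without a filter and moved miR-411c-5p to 1.77, against 3.82 apart, and miR-376b to 4.65, against 5.24. Depth limits the 18 uncalled scarce members and arm shares in blood cells.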
